A study of Arabidopsis thaliana with 18 samples.

Results

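ABCI19 (AT1G03905, chromosome 1), ABCI20 (AT5G02270, chromosome 5) and ABCI21 (AT5G44110, chromosome 5) are 3 related Arabidopsis genes, and ABCI20 is the gene disrupted in the mutant of the series. They were chosen by name and not by a rule on their values, though with earlier results of these data known. Their probe sets AT1G03905_at, AT5G02270_at and AT5G44110_at are 3 of the 27827 in the deposited values. The samples were freshly harvested dry seeds of Col-0 wild type and of the abci20 mutant in the Col-0 background. Per the labels' protocols a biological replicate was a bulk of 8 plants, and 3 replicates were grown for each genotype. The arrays held either total RNA, or RNA from polysomes, where a message carries several ribosomes, or RNA from monosomes, where it carries 1, which gave 6 groups of 3 arrays and 18 arrays in all. The allele and the type of lesion are not stated in the labels, and the results describe the abci20 seeds as labelled. Each whole seed holds embryo, endosperm and seed coat, so fewer cells of a type and less RNA per cell cannot be told apart.

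The ABCI genes encode non-intrinsic ATP-binding cassette proteins, which lack membrane-spanning segments of their own or form part of a transporter made of separate subunits. ABCI19, ABCI20 and ABCI21 each carry a nucleotide-binding domain, the part of such a protein that binds and hydrolyses ATP. In Arabidopsis seedlings the 3 proteins have been placed together at the endoplasmic reticulum, and their loss has been linked to an altered response to cytokinin, a growth hormone. Light and the light-signalling transcription factor HY5 have been linked to their expression in seedlings. The series addresses what ABCI20 does in seed maturation. Comparison of the fractions shows which messages had a relatively higher signal in one RNA fraction than in another.

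Values were RMA log2 signals from 0.301 to 12.71, so a difference of 1 is a 2-fold difference. RMA adjusts arrays towards one another, so a difference between fractions is relative to the other messages of the same array and not an amount of message. Seed markers (cruciferins, 2S albumins, oleosins and EM proteins, 11 genes) lay at percentile 94.3 or higher of all signals of their array, and 0 of 11 passed a genotype test. Across probe sets, which are not independent, the array abci20 total replicate 1 had r = 0.893 and 0.915 with the other 2 of its group, while all other pairs of replicates had r from 0.957 to 0.987. Results were also computed without it. Precision is limited by the 3 arrays per group. Of the markers of other tissues, 0 of 5 for the seed coat, 0 of 3 for green tissue and 1 of 4 for the endosperm passed a genotype test. The one that passed was MAN7, an endo-mannanase gene, in monosomal RNA. Calls in either direction made up 3.35%, 0.442% and 1.83% of all probe sets in total, polysomal and monosomal RNA. Counts of 0 in lists this short are near these shares.

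ABCI20 was much lower in abci20 seeds in all 3 fractions. On the Col-0 arrays of total RNA it was at 4.42, 4.02 and 3.80 log2, against 1.88, 1.10 and 2.33 on the abci20 arrays. In polysomal RNA it was 4.23, 4.49 and 4.39 on the Col-0 arrays and 2.37, 1.61 and 2.16 on the abci20 arrays. In monosomal RNA it was 3.83, 5.09 and 4.37 on the Col-0 arrays and 2.40, 2.06 and 1.63 on the abci20 arrays. All 9 mutant arrays were below all 9 Col-0 arrays, with the highest mutant value at 2.40 and the lowest Col-0 value at 3.80. Of all probe sets, 0.557% (155 of 27827) showed this complete order.

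**Figure D1:**
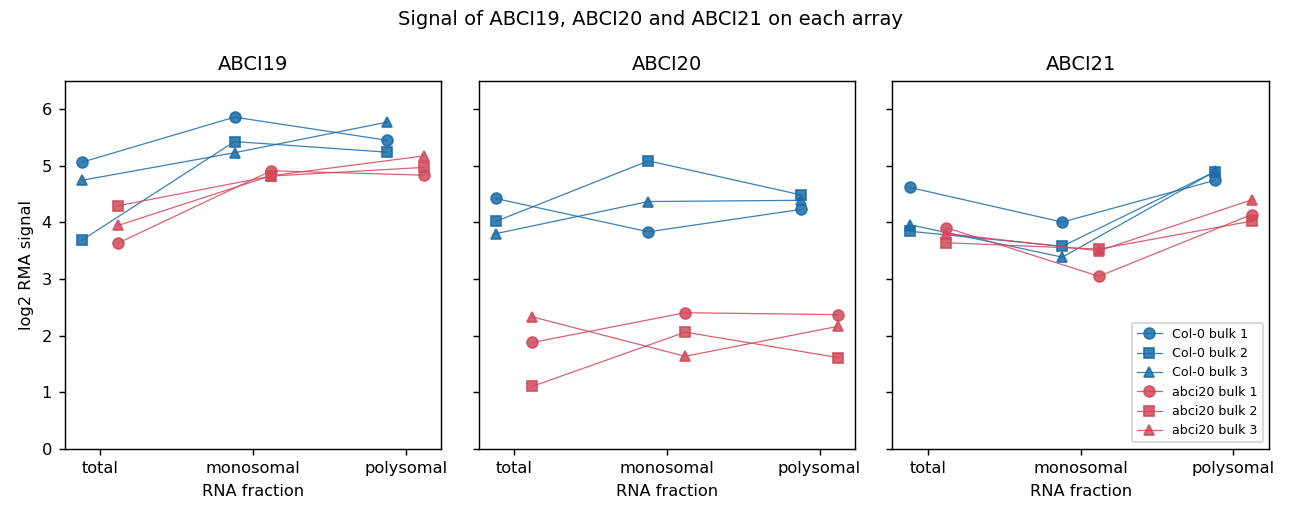
Log2 RMA signal (y axis) of ABCI19, ABCI20 and ABCI21 (panels) on each of the 18 arrays, by RNA fraction (x axis), with lines joining the arrays of the same genotype and replicate number. ABCI20 forms 2 separate bands, ABCI19 is lowest in total RNA, and ABCI21 has its lowest mean in monosomal RNA in both genotypes.

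ABCI20 fell by 2.31 log2 in total RNA (SE 0.341, adjusted p = 0.00151), and the difference was -2.32 in polysomal RNA (adjusted p = 0.00406) and -2.40 in monosomal RNA (adjusted p = 0.00195), in limma's moderated test with Benjamini-Hochberg adjustment over all probe sets. These correspond to 4.96-fold, 5.0-fold and 5.27-fold lower signal, and as far as the mutant signal is background they are lower bounds on the fold of message. The share of probe sets called lower was 2.24% in total RNA, 0.208% in polysomal RNA and 0.744% in monosomal RNA, and 0.144% (40 probe sets) were called lower in all 3 fractions. Only 13 probe sets had a more negative difference than ABCI20 in total RNA, 5 in polysomal RNA and 6 in monosomal RNA. Its calls held when any 1 of the compared arrays, or abci20 total replicate 1, was left out. The adjusted p was then between 0.00142 and 0.0469. In fits restricted to the 6 arrays of a comparison, the adjusted p was 0.185 in total RNA, where 0 probe sets passed (2765 at an unadjusted p under 0.05), 0.00286 in polysomal RNA and 0.0556 in monosomal RNA.

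The remaining ABCI20 signal in the mutant lay between percentiles 2.59 and 38.7 of all signals of its array, against 56.8 to 70.2 in Col-0. No label says where the lesion lies relative to the probes. The signal left in the mutant therefore cannot be assigned to intact message, truncated message or background.

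The 3 ABCI20 differences were next compared with one another. The genotype difference of ABCI20 changed by -0.01 log2 between total and polysomal RNA (SE 0.482, 95% interval -1.03 to 1.0), by 0.08 between monosomal and polysomal RNA (95% interval -0.94 to 1.09) and by -0.09 between total and monosomal RNA (95% interval -1.1 to 0.93). In limma the adjusted p of these 3 interaction terms was between 0.974 and 1.0. These intervals leave room for a change of about 1 log2, so equal loss in all fractions was not shown. As far as the mutant signal is background, the terms do not follow ABCI20 message. For these 3 terms 0 of 27827 probe sets passed, while 1263, 744 and 2270 had an unadjusted p under 0.05. Without abci20 total replicate 1 the counts that passed were 28 and 208 for the 2 terms that include total RNA.

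ABCI19 and ABCI21 were measured with lower means in the mutant in all 3 fractions, and neither passed the test in any of them. Fitted differences below 0 in all 3 fractions were found for 21.7% of all probe sets. In total RNA ABCI19 was at 5.06, 3.69 and 4.74 log2 on the Col-0 arrays and at 3.64, 4.30 and 3.95 on the abci20 arrays. The genotypes overlapped there, and Col-0 replicate 2 lay below 2 of the 3 mutant arrays. In polysomal RNA ABCI19 was at 5.45, 5.24 and 5.77 in Col-0 and at 4.84, 4.97 and 5.18 in abci20. In monosomal RNA it was at 5.86, 5.43 and 5.23 in Col-0 and at 4.91, 4.82 and 4.83 in abci20. Every mutant array was below every Col-0 array in these 2 fractions, an order shown by 11% and 10.3% of all probe sets (10% in total RNA and 2.67% in all 3 fractions). The fitted ABCI19 difference was -0.54 log2 in total RNA (SE 0.296, 95% interval -1.16 to 0.09, limma adjusted p = 0.377), -0.49 in polysomal RNA (adjusted p = 0.812) and -0.65 in monosomal RNA (adjusted p = 0.306). The total RNA value depended on single arrays: it was -0.94 without Col-0 total replicate 2 (adjusted p = 0.0668) and -0.25 without Col-0 total replicate 1 (adjusted p = 0.743).

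ABCI21 in total RNA was at 4.62, 3.84 and 3.96 log2 on the Col-0 arrays and at 3.91, 3.64 and 3.80 on the abci20 arrays. In polysomal RNA it was at 4.75, 4.90 and 4.90 in Col-0 and at 4.14, 4.02 and 4.40 in abci20. In monosomal RNA it was at 4.01, 3.58 and 3.39 in Col-0 and at 3.05, 3.53 and 3.50 in abci20. The genotypes overlapped in total and monosomal RNA and were apart in polysomal RNA, where the nearest arrays differed by 0.35. Every mutant array below every Col-0 array was found for 11% of all probe sets in polysomal RNA. The fitted ABCI21 difference was -0.36 in total RNA (SE 0.234, adjusted p = 0.476), -0.66 in polysomal RNA (95% interval -1.15 to -0.17, adjusted p = 0.354) and -0.30 in monosomal RNA (adjusted p = 0.627), in limma. In total RNA it was -0.12 without Col-0 total replicate 1. In monosomal RNA it was -0.12 without Col-0 monosome replicate 1 and -0.14 without abci20 monosome replicate 1. With arrays weighted by their estimated quality, ABCI21 passed in polysomal RNA (-0.69, adjusted p = 0.00821), a setting in which 2657 probe sets passed in place of 123.

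**Figure D2:**
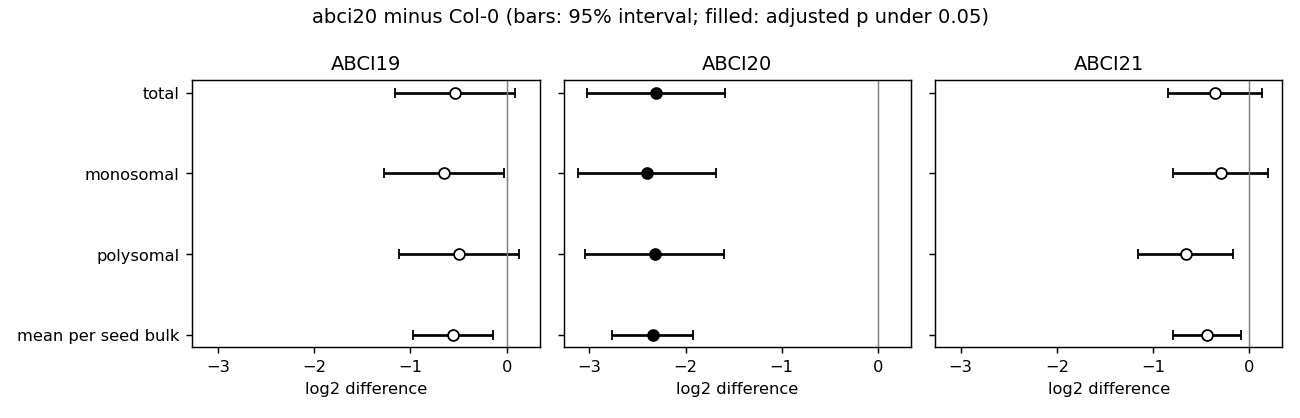
Fitted abci20 minus Col-0 difference in log2 units (x axis) for each member (panels), in each fraction and for the mean of the 3 fractions per seed bulk (y axis). Bars are 95% intervals and filled points have an adjusted p under 0.05: all 4 ABCI20 points are filled and lie between -2.40 and -2.31, and the ABCI19 and ABCI21 points are open and lie between -0.66 and -0.30.

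Because the 3 fractions of a replicate were taken to come from the same seed bulk, the genotype effect was also tested on 1 mean value per bulk. For ABCI20 the mean over bulks was 4.29 ± 0.205 log2 in Col-0 and 1.95 ± 0.323 in abci20 (SD, n = 3 bulks), a difference of -2.34 (limma adjusted p = 0.000412). For ABCI19 it was 5.17 ± 0.345 in Col-0 and 4.60 ± 0.124 in abci20, a difference of -0.56 (95% interval -0.98 to -0.15, adjusted p = 0.127). For ABCI21 it was 4.22 ± 0.209 in Col-0 and 3.78 ± 0.108 in abci20, a difference of -0.44 (95% interval -0.79 to -0.09, adjusted p = 0.16). Each of the 3 ABCI19 bulks of the mutant was below each Col-0 bulk, and the same held for ABCI21, an order shown by 12.9% of all probe sets. The share of probe sets called lower in this comparison was 2.39%. ABCI19 and ABCI21 thus missed the threshold after adjustment, although neither unadjusted interval included 0, and an absence of change was not shown.

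In the order of the 6 group means, ABCI19 ran from Col-0 monosomal (5.51 ± 0.322, SD, n = 3) and Col-0 polysomal (5.49 ± 0.268) through abci20 polysomal (5.0 ± 0.171) and abci20 monosomal (4.85 ± 0.0523) to Col-0 total (4.50 ± 0.721) and abci20 total (3.96 ± 0.329). None of the 5 steps between neighbours in this order passed (limma adjusted p from 0.377 to 0.974). ABCI20 ran from Col-0 monosomal (4.43 ± 0.63), Col-0 polysomal (4.37 ± 0.129) and Col-0 total (4.08 ± 0.316) to abci20 polysomal (2.05 ± 0.392), abci20 monosomal (2.03 ± 0.386) and abci20 total (1.77 ± 0.621). Of its 5 steps only the one from Col-0 total to abci20 polysomal, 2.03 log2, passed (adjusted p = 0.00146). ABCI21 ran from Col-0 polysomal (4.85 ± 0.09) and abci20 polysomal (4.19 ± 0.192) through Col-0 total (4.14 ± 0.418) and abci20 total (3.79 ± 0.134) to Col-0 monosomal (3.66 ± 0.317) and abci20 monosomal (3.36 ± 0.27). None of its 5 steps passed (adjusted p from 0.354 to 0.926). The order was taken from the same values that the steps test, which makes most steps between neighbours small. These tests are therefore a description, and the ABCI20 step that passed differs in both genotype and fraction.

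ABCI19 was higher in both ribosome-bearing fractions than in total RNA. Within a bulk its polysomal level exceeded its total level in 6 of 6 bulks, by 0.39 to 1.56 log2, and its monosomal level exceeded total in 6 of 6, by 0.49 to 1.74. The share of all probe sets with 6 of 6 was not counted, so these counts are a description. Averaged over both genotypes, a contrast added after the values were seen, ABCI19 was higher by 1.01 in polysomal than in total RNA (SE 0.209, limma adjusted p = 0.00186) and by 0.95 in monosomal than in total RNA (adjusted p = 0.00379). The share of probe sets called higher in these contrasts was 18.2% and 13.1%. Both calls held without any 1 of the compared arrays. The polysomal and monosomal levels of ABCI19 differed by 0.06 (95% interval -0.38 to 0.50, adjusted p = 0.836).

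Within a single genotype the ABCI19 differences had nearly the same size and lay close to the threshold. Polysomal exceeded total RNA by 0.99 in Col-0 (adjusted p = 0.0518) and by 1.03 in abci20 (adjusted p = 0.021), where 4.06% and 11.9% of probe sets were called higher. With the seed bulk as a replicate block the Col-0 value passed (adjusted p = 0.0472). It also passed without abci20 total replicate 1 (adjusted p = 0.0333) and without Col-0 total replicate 1 (0.0301). Without Col-0 total replicate 2 it was 0.58 (adjusted p = 0.224). The abci20 value missed the threshold without abci20 polysome replicate 2 (adjusted p = 0.0524), abci20 polysome replicate 3 (0.0743) and abci20 total replicate 3 (0.0544), after quantile normalization (0.0801) and with only the compared arrays (0.0531).

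Monosomal exceeded total RNA for ABCI19 by 1.01 in Col-0 (adjusted p = 0.0499) and by 0.89 in abci20 (adjusted p = 0.0521), where 3.2% and 8.15% of probe sets were called higher. The Col-0 value missed the threshold with the replicate number as a block (0.0574) and passed with the seed bulk as one (0.0455), and the abci20 value passed with the seed bulk (0.0429). Without Col-0 total replicate 2, the array with the lowest Col-0 level, the Col-0 difference was 0.60 (adjusted p = 0.223). It also missed the threshold without Col-0 monosome replicates 1, 2 and 3 (adjusted p = 0.169, 0.0829 and 0.063) and without Col-0 total replicate 3 (0.0621).

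ABCI21 had its highest mean in polysomal and its lowest in monosomal RNA in both genotypes, and of these steps polysomal against monosomal RNA passed in each genotype. Its polysomal level exceeded its monosomal level in 6 of 6 bulks, by 0.49 to 1.52 log2, and its monosomal level was below total in 6 of 6, with differences from -0.86 to -0.11. Here too the share of all probe sets with 6 of 6 was not counted. ABCI21 was higher in polysomal than in monosomal RNA by 1.19 in Col-0 (SE 0.234, 2.28-fold, limma adjusted p = 0.00323) and by 0.83 in abci20 (1.78-fold, adjusted p = 0.0299). Higher calls made up 8.2% and 7.31% of probe sets in these contrasts. Over all probe sets the median difference was -0.13 in Col-0 and -0.11 in abci20. Averaged over both genotypes the ABCI21 difference was 1.01 (SE 0.165, adjusted p = 0.000278), where 15.2% of probe sets were called higher. This call held without any 1 of the compared arrays and in every setting tried.

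The Col-0 call of ABCI21 held without any 1 of the compared arrays but not after quantile normalization (0.83, adjusted p = 0.0716). The abci20 call was lost after quantile normalization (0.62, adjusted p = 0.201), with a variance trend (0.0552), and without abci20 monosome replicate 1 (0.125), abci20 monosome replicate 3 (0.0512), abci20 polysome replicate 1 (0.0843) or abci20 polysome replicate 3 (0.12). Between polysomal and total RNA, ABCI21 differed by 0.71 in Col-0 (adjusted p = 0.0734) and by 0.40 in abci20 (adjusted p = 0.226). The Col-0 value passed without Col-0 total replicate 1 (0.95, adjusted p = 0.0353). Averaged over both genotypes it was 0.56 (adjusted p = 0.0163), which quantile normalization ended (0.49, adjusted p = 0.081). Monosomal minus total RNA was -0.48 in Col-0 (adjusted p = 0.223) and -0.43 in abci20 (adjusted p = 0.234), where 3.45% and 6.58% of probe sets were called lower. It was -0.45 averaged over both genotypes (adjusted p = 0.0537, with 11.3% called lower), and this passed without Col-0 monosome replicate 1 (-0.54, adjusted p = 0.0308) or Col-0 total replicate 2 (-0.53, adjusted p = 0.042).

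**Figure D3:**
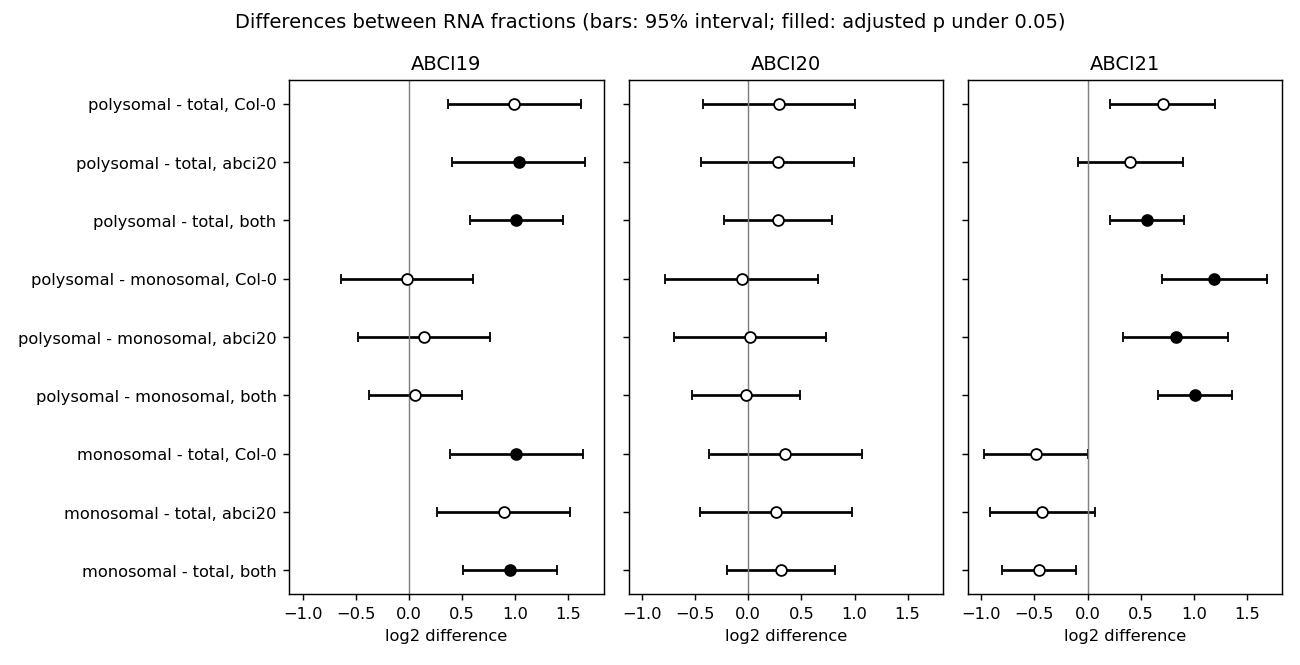
Fitted differences between RNA fractions in log2 units (x axis) for each member (panels), within Col-0, within abci20 and averaged over both genotypes (y axis). Bars are 95% intervals and filled points have an adjusted p under 0.05: ABCI19 is shifted upward in both ribosome-bearing fractions against total RNA, ABCI21 in polysomal against monosomal RNA, and every ABCI20 interval includes 0.

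ABCI20 showed no fraction difference that passed. Its polysomal level exceeded its total level in 4 of 6 bulks, with a range from -0.19 to 0.59 log2, and its monosomal level exceeded total in 4 of 6, from -0.70 to 1.07. In Col-0 polysomal minus total RNA was 0.29 (95% interval -0.43 to 1.01, limma adjusted p = 0.654) and polysomal minus monosomal RNA was -0.06 (95% interval -0.78 to 0.66, adjusted p = 0.922). These intervals are wide and do not show that ABCI20 lacks a shift of that size. The abci20 bulks are 3 of the 6, and their ABCI20 signal lay at percentiles 2.59 to 38.7, where background could not be judged. Their differences, and the averages over both genotypes, may therefore not follow ABCI20 message. Whether the fraction differences of 1 member differ from those of another was not tested.

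No change of the fraction differences of ABCI19 or ABCI21 with genotype was detected. The interaction for ABCI21 between polysomal and monosomal RNA was -0.36 (95% interval -1.06 to 0.33) and that for ABCI19 between polysomal and total RNA was 0.04 (95% interval -0.84 to 0.93). All 6 interaction terms of these genes had an adjusted p of 0.959 or more in limma, where 0 of 27827 probe sets passed. The intervals are wide, so equal fraction differences in both genotypes were not shown.

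The genes whose signal ran most like each member's were taken as the 5 highest Pearson r over the 18 arrays. The 18 arrays share seed bulks, fractions and genotypes, so these r values are descriptions. For ABCI20 the 5 were AT5G22460 (r = 0.941), AT4G22530 (0.939), E12A11 (AT1G18100, also named MFT, 0.937), AT5G49690 (0.937) and AT5G66430 (0.932). E12A11 is a regulator of seed germination that acts with abscisic acid. Likeness to ABCI20 over 18 arrays of both genotypes selects genes that are lower in the mutant, so their differences in total RNA are a description. These ran from -2.99 (AT5G66430) to -1.18 (AT4G22530). Over the 9 Col-0 arrays alone their r with ABCI20 was lower, at 0.178 to 0.647.

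For ABCI19 the 5 were UCH2 (0.908), DDI1 (0.877), PYL5 (0.874), AT1G25420 (0.87) and AT5G65400 (0.869). UCH2 is a ubiquitin C-terminal hydrolase and PYL5 an abscisic acid receptor. Their r over the 9 Col-0 arrays was 0.87 to 0.92. These arrays are among the 18 used to choose the genes, so this is no separate support. UCH2 fell by 0.80 (limma adjusted p = 0.0291) and PYL5 by 0.97 (adjusted p = 0.0213) in mutant total RNA, and the other 3 did not pass. Of all probe sets 2.24% were called lower there. The choice used arrays of both genotypes, and ABCI19 had lower means in the mutant, so these differences are a description. For ABCI21 the 5 were AT3G56320 (0.934), ABCC5 (0.926), CHX18 (0.926), SCAR4 (0.923) and the mitochondrial locus ATMG00490 (0.918). ABCC5 is another ATP-binding cassette protein, which carries inositol hexakisphosphate, the phosphorus store of seeds, and CHX18 is a cation/proton exchanger. Their r over the 9 Col-0 arrays was 0.896 to 0.976, and none passed the genotype test in total RNA (adjusted p from 0.0507 to 0.196). These 5 were chosen over the same arrays and both genotypes, so this too is a description. Between the members themselves r over 18 arrays was 0.354 to 0.488, and over the 9 Col-0 arrays it was -0.01 to 0.286.

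The loci next to the members on the chromosome were examined, 3 measured loci on each side of each. Around ABCI20 none of 6 passed in any fraction, with fitted differences from -0.85 (AT5G02240, adjusted p = 0.123) to 0.86 (EXPA9, an expansin gene, adjusted p = 0.43), both in total RNA under limma. Around ABCI21 none of 6 passed either, among them the cruciferin gene CRA1, its direct neighbour, at -0.17 in total RNA (adjusted p = 0.652). Around ABCI19 2 of 6 passed in at least 1 fraction. The share of all probe sets called in either direction was 3.35% in total RNA, 0.442% in polysomal RNA and 1.83% in monosomal RNA.

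One of these was ABCI18 (AT1G03900), the direct neighbour of ABCI19, listed in the same ABCI subfamily. In monosomal RNA it was at 6.32, 6.42 and 6.79 log2 in Col-0 and at 7.74, 7.56 and 7.35 in abci20, with no overlap between the genotypes. All mutant arrays above all Col-0 arrays were found for 9.52% of probe sets in this fraction. ABCI18 rose by 1.04 (SE 0.219, limma adjusted p = 0.0226), where 1.09% of probe sets were called higher. In polysomal RNA it was at 6.52, 6.62 and 6.38 in Col-0 and at 7.54, 7.56 and 7.35 in abci20, a difference of 0.98 (adjusted p = 0.0611). In total RNA the difference was 0.47 (adjusted p = 0.284). On bulk means ABCI18 rose by 0.83 (adjusted p = 0.0123), where 2.27% of probe sets were called higher. The monosomal call was lost without abci20 monosome replicates 1 (adjusted p = 0.0934) and 2 (0.0904), without Col-0 monosome replicates 1 (0.103) and 2 (0.0564), and with only the compared arrays (0.127). The bulk call was lost without abci20 bulk 2 (0.0569). The sign of the ABCI18 difference was thus opposite to that of the 3 members in all fractions.

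The other was AT1G03890, a cruciferin-like storage protein gene 2 loci from ABCI19, which fell in mutant total RNA (-2.34, adjusted p = 0.0298, and 0.0516 after quantile normalization). It missed the threshold without abci20 total replicate 2 (-1.47, adjusted p = 0.0974) and without Col-0 total replicates 1, 2 and 3 (adjusted p = 0.0956, 0.0585 and 0.0855), and with the compared arrays alone (0.341). It was at -1.96 in polysomal RNA (adjusted p = 0.188) and -1.83 in monosomal RNA (adjusted p = 0.108). All 9 mutant arrays (5.26 to 8.28 log2) were below all 9 Col-0 arrays (8.96 to 9.64). Of all probe sets, 0.557% showed this order. On bulk means the fall passed in limma, where 2.39% of probe sets were called lower. That call was lost without Col-0 bulk 1 (-1.92, adjusted p = 0.0631) or Col-0 bulk 2 (-2.08, adjusted p = 0.0541).

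Among the 12 other nuclear ABCI genes, ABCI18 in monosomal RNA was the only one past the threshold in a fraction. Some of these genes serve organellar functions, among them iron-sulphur cluster assembly in plastids (ABCI6, ABCI7 and ABCI8), lipid import into plastids (ABCI13, ABCI14 and ABCI15) and cytochrome c maturation in mitochondria (ABCI1). Their median difference was -0.18 log2 in total RNA, 0.04 in polysomal RNA and -0.04 in monosomal RNA, against 0.01, -0.01 and -0.03 over all probe sets. In total RNA 8 of the 12 were below 0, and ABCI8, singled out after its value was seen, was lowest at -0.55 (adjusted p = 0.158). Among the 8 soluble ABCE and ABCF genes, whose proteins act on ribosomes or in translation control in yeast and other organisms, 0 passed in any fraction. In total RNA ABCE1 was at 0.59 (adjusted p = 0.287) and ABCE2 at -0.61 (adjusted p = 0.105). With 3.35%, 0.442% and 1.83% of all probe sets called in total, polysomal and monosomal RNA, 0 calls in a list this short say little about it.

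Cytokinin genes were examined because of the link between the 3 proteins and this hormone. Over all probe sets 3.35%, 0.442% and 1.83% were called in total, polysomal and monosomal RNA. Counts of 0 in lists this short are near these shares and are not a result about the pathway. Of 9 genes for receptors and phosphotransfer proteins 0 passed in any fraction, and 8, 5 and 7 of the 9 were below 0 in total, polysomal and monosomal RNA, with medians of -0.23, -0.08 and -0.19. Of the 11 seed markers 10, 10 and 9 were below 0, with medians of -0.21, -0.15 and -0.11. The share of all probe sets below 0 in a single fraction was not counted, and their medians were 0.01, -0.01 and -0.03. The receptor gene AHK3 was at -0.34 in total RNA (adjusted p = 0.429) and the phosphotransfer gene AHP3 at -0.59 (adjusted p = 0.42). Of 5 type-B response regulators, the transcription factors of the pathway, 0 passed, and ARR2 was at -0.48 (adjusted p = 0.226) and ARR10 at -0.35 (adjusted p = 0.589) in total RNA. Of 10 type-A response regulators, which cytokinin induces and which restrain the response, 0 passed, with medians of 0.02, 0.03 and 0.11 in total, polysomal and monosomal RNA. ARR5 was at 0.72 in total RNA (adjusted p = 0.153) and ARR17 at 0.58 (adjusted p = 0.332).

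Of 13 genes for cytokinin synthesis, breakdown and transport 0 passed in a single fraction, and 1 passed on bulk means, where 2.39% of all probe sets were called lower. This was IPT1, an isopentenyltransferase of cytokinin synthesis, with a difference of -0.64 in total RNA, -0.65 in polysomal RNA and -0.82 in monosomal RNA and a fall of 0.70 on bulk means (SE 0.172, limma adjusted p = 0.0449). Its levels in total RNA were 3.93, 4.25 and 3.60 log2 in Col-0 and 3.53, 3.31 and 3.02 in abci20, with no overlap between the genotypes, as for 10% of all probe sets. The bulk call of IPT1 was lost with a replicate block (0.0804) and without 5 of the 6 bulks in turn: abci20 bulks 1, 2 and 3 (0.0713, 0.165 and 0.0831) and Col-0 bulks 1 and 2 (0.16 and 0.132). Of 6 light-signalling genes 0 passed in any fraction, and HY5 itself was at 0.36, 0.28 and 0.35 in total, polysomal and monosomal RNA (adjusted p = 0.391, 0.925 and 0.459). PHYB, a red-light receptor gene, was at -0.49 in total RNA (adjusted p = 0.267). The counts of 0 in these 2 lists are again near the shares over all probe sets, 3.35%, 0.442% and 1.83% in total, polysomal and monosomal RNA.

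**Figure D4:**
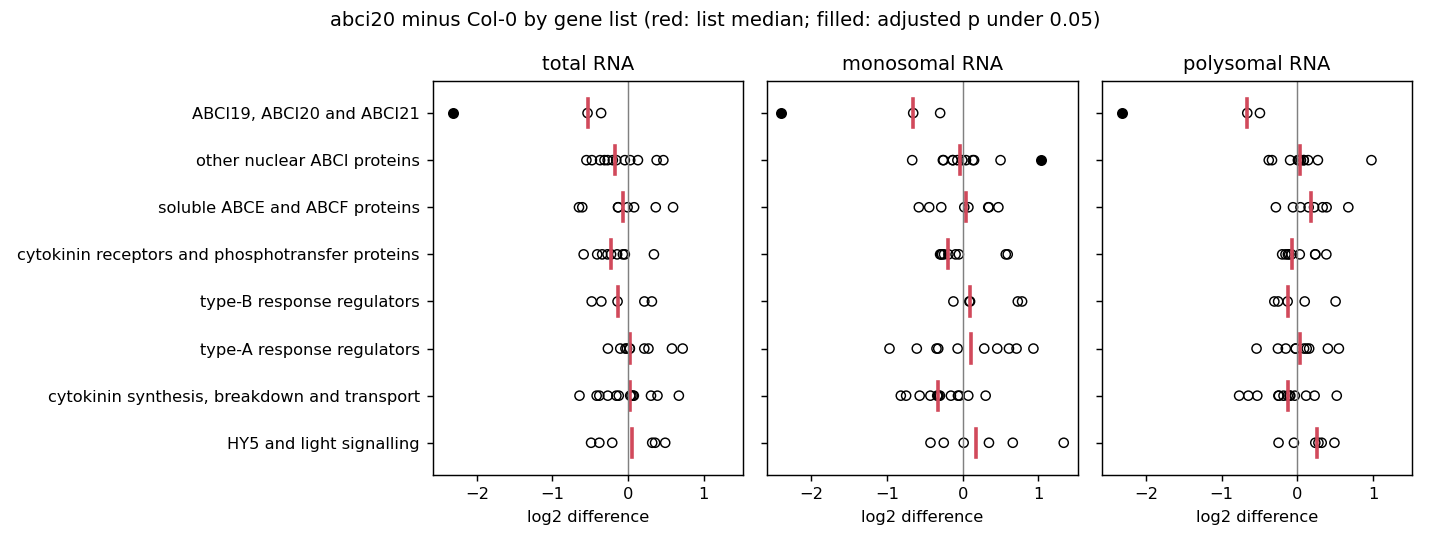
Fitted abci20 minus Col-0 difference in log2 units (x axis) of each gene of 8 lists (y axis) in total, monosomal and polysomal RNA (panels). Circles are genes, filled where the adjusted p was under 0.05, and red bars are list medians: ABCI20 and, in monosomal RNA, ABCI18 are the only filled circles.

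Of the 4 endosperm markers, MAN7 alone passed in the monosomal comparison, and the other 3 were at 0.07 (EPR1), 0.13 (ZOU) and 0.39 (EXPA2). MAN7 rose by 1.21 log2 (adjusted p = 0.0464, with 1.09% of probe sets called higher), and the 4 markers had a median of 0.26, with a mean level per array of 4.25 to 4.82 in Col-0 and 4.77 to 5.20 in abci20. In total RNA the same mean level was 4.63 to 4.84 in Col-0 and 4.62 to 5.04 in abci20, and in polysomal RNA it was 4.57 to 4.66 and 4.45 to 4.83. The call of MAN7 was lost without abci20 monosome replicates 2 and 3 (adjusted p = 0.155 and 0.139), without Col-0 monosome replicates 1, 2 and 3 (0.147, 0.0906 and 0.0804), after centring (0.0524), with array weights (0.0795) and with only the compared arrays (0.225). The part of endosperm RNA in the monosomal values of ABCI18, ABCI19, ABCI20 and ABCI21 was not tested.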

How the data were processed

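Arabidopsis seed RNA was measured on arrays with a biotin label and a 3-prime one-cycle kit, per the labels' protocols. The deposited values are log2 signals made by the authors with RMA, per the submitters' processing notes. Groups follow the genotype and fraction in the labels. All 18 arrays were fitted with limma 3.58.1 (statmod 1.5.0, R 4.3.3), 1 coefficient per group, 12 residual degrees of freedom and no intensity filter. Tests were two-sided, adjusted by Benjamini-Hochberg over 27827 probe sets at 0.05. Bulk means had 4 residual degrees of freedom. The scripts were tested on simulated data. In the total RNA comparison 91 of 100 genes changed by 2.5 log2 were recovered, and 61 of 100 changed by 1.5. Smaller changes were not simulated. Symbols came from RefSeq, which matched 27241 probe sets, and its order of loci gave the neighbours. No build is named in the files, so no coordinates are given.

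Arrays with one replicate number were treated as 1 field block, and those of 1 genotype also as 1 seed bulk, because the labels state a block layout. Residual correlations of such pairs ran from -0.166 to 0.245, and 7 of 27 exceeded 0.1. The consensus correlation within a seed bulk was 0.0312 in limma. The replicate block was an alternative because no model is stated.

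Members, lists, tests and alternatives were chosen with earlier results of these data known. Named genes were the 3 members, 3 measured loci on each side of each, the 5 most correlated probe sets of each (182 probe sets with values identical to another's left out), and in each list those past the threshold or else the 2 with the smallest p in total RNA. ABCI8 was named after its value was seen. Of 87 list genes 86 were used, and ABCI16 was left out because the reference gives its locus another symbol. Plots used Python 3.11.15 and matplotlib 3.10.9. Alternatives were quantile normalization, median centring, a filter on dim probe sets, a variance trend, array weights, the replicate block and the compared arrays alone. Each compared array or seed bulk, and abci20 total replicate 1, was also left out in turn. Other arrays that shared the estimate of spread were not. The contrasts averaged over genotypes and the seed bulk block were added after seeing the data.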

Additional observations from a re-analysis of the deposited data

How the results depend on the processing

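The ABCI20 falls kept their direction under all alternatives. With the compared arrays alone 2 of them missed the threshold, in total RNA (-2.31) and in monosomal RNA (-2.40), and on bulk means all settings kept the call. ABCI21 in the polysomal genotype comparison passed with array weights (-0.69). With all 18 arrays and the bulk as a random block, the bulk comparison of ABCI19 had an adjusted p of 0.0526 and that of ABCI21 0.056 in limma. The cause of these changes and of those below was not tested. In a fit of 6 compared arrays there were 4 residual degrees of freedom in place of 12, and the estimate of spread also changed.

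For ABCI19 polysomal minus total RNA in Col-0 passed with the seed bulk block, the brighter probe sets and a variance trend (0.99 each), with median centring (1.20) and with array weights (1.06), and leaving out 1 array gave 0.58 to 1.27. In abci20 it missed the threshold with the compared arrays alone (1.03) and after quantile normalization (0.93), and leaving out 1 array gave 0.87 to 1.20. Monosomal minus total RNA of ABCI19 in Col-0 missed the threshold with the replicate block and the compared arrays alone (1.01 each) and with array weights (1.03), with 0.60 to 1.29 when 1 array was left out. In abci20 it passed with the seed bulk block, the brighter probe sets and a variance trend (0.89 each), after quantile normalization (1.11) and with median centring (1.19). For ABCI21 polysomal minus total RNA in Col-0 passed with centring (0.92), the brighter probe sets (0.71) and array weights (0.71), with 0.56 to 0.95 when 1 array was left out, and in abci20 with centring (0.73). Averaged over genotypes it was lost after quantile normalization (0.49). Polysomal minus monosomal RNA of ABCI21 was lost after quantile normalization in Col-0 (0.83) and abci20 (0.62) and with a variance trend in abci20 (0.83), with 0.67 to 0.91 in abci20 when 1 array was left out. Monosomal minus total RNA of ABCI21 averaged over genotypes passed with the brighter probe sets (-0.45) and array weights (-0.47), with -0.54 to -0.34 when 1 array was left out.

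Signs turned among differences that had not passed. For polysomal minus monosomal RNA these were ABCI19 in Col-0 with centring (0.055) and array weights (0.033), in abci20 after quantile normalization (-0.18) and over both genotypes after quantile normalization (-0.27), and ABCI20 in Col-0 with centring (0.0131) and over both genotypes with centring (0.0273) and array weights (0.0451). For the interaction of polysomal minus total RNA they were ABCI20 after quantile normalization (0.38) and centring (0.10) and ABCI19 with array weights (-0.15). For that of monosomal minus total RNA they were ABCI19 (0.0412) and ABCI20 (0.0711) with centring. Leaving out 1 array gave, for polysomal minus monosomal RNA, -0.16 to 0.16 (ABCI19, Col-0), -0.36 to 0.27 (ABCI20, Col-0), -0.18 to 0.23 (ABCI20, abci20), -0.0099 to 0.15 (ABCI19, both genotypes) and -0.17 to 0.14 (ABCI20, both genotypes). For ABCI20 in abci20 it gave -0.0561 to 0.56 for polysomal and -0.072 to 0.54 for monosomal minus total RNA. For the interactions it gave -0.24 to 0.45 (ABCI19) and -0.35 to 0.27 (ABCI20) for polysomal minus total, -0.0164 to 0.30 (ABCI19) and -0.25 to 0.37 (ABCI20) for polysomal minus monosomal, and -0.40 to 0.29 (ABCI19), -0.42 to 0.24 (ABCI20) and -0.18 to 0.23 (ABCI21) for monosomal minus total RNA.

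The replicate block changed no other call of the 3 genes. Median centring moved the median of all probe sets to 0.22 in Col-0 and 0.34 in abci20 for polysomal minus total RNA, and to 0.20 and 0.35 for monosomal minus total RNA. Counts of probe sets that passed the genotype test were 932 in total RNA (0 to 2640 over the alternatives), 123 in polysomal RNA (27 to 2657), 510 in monosomal RNA (25 to 1087) and 1299 on bulk means (347 to 2687). Between fractions they were 426 to 4899, 1730 to 5496 and 637 to 3185 in Col-0 for polysomal minus total, polysomal minus monosomal and monosomal minus total RNA, and 1590 to 11135, 1475 to 7029 and 523 to 7651 in abci20. Signal over background could not be judged from RMA values, which limits what low signals such as ABCI20 in abci20 show.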
